A study of Homo sapiens with 8 samples.

Results

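The comparison described here is the silencing of the IRE1-XBP1 pathway within JJN3, an established human multiple myeloma line. Its members are the 4 JJN3 arrays of a series of 8 Affymetrix arrays and were chosen by their labels; the other 4 arrays come from RPMI-8226, another established myeloma line, and serve for comparison, in the 8-array fits and in the choice of each gene's probe set, which takes the highest SD over all 8 arrays. The 2 control arrays hold RNA from JJN3 cells without lentivirus and from JJN3 cells infected with a lentivirus that expresses a non-targeting (NT) shRNA. The 2 silenced arrays hold RNA from JJN3 cells infected with a lentivirus that expresses an shRNA against XBP1 or an shRNA against IRE1, the product of ERN1. Per the labels, infection lasted 16 h in medium with 8 µg/mL of polybrene, and cells were harvested at 96 h. The labels name 1 shRNA per target and do not say whether uninfected cells received polybrene. Each treatment has 1 array, so the 2 silenced arrays, which target different genes, stand as replicates of silencing, and the 2 unlike controls stand as replicates of the control state. The p-values therefore measure only the spread between these arrays.

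Myeloma cells derive from plasma cells, which secrete large amounts of antibody and depend on the machinery that folds and exports proteins from the endoplasmic reticulum (ER). IRE1 is an ER membrane sensor of unfolded proteins whose RNase splices XBP1 mRNA, and the spliced form encodes a transcription factor that induces chaperones, translocon subunits and transport factors. In a separate arm of the unfolded protein response, the kinase PERK favours translation of the transcription factor ATF4, which also responds to amino acid shortage and induces enzymes, transporters and tRNA synthetases of amino acid supply.

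Among the 61 genes lower on both silenced JJN3 arrays by at least 2-fold between the nearest arrays, 20 belong to lists of amino acid supply and ATF4 output. These lists hold 77 of the 19775 genes measured and were written with earlier results of these data known. Serine, asparagine and transsulfuration enzymes (PSAT1, ASNS, CTH), amino acid transporters (SLC7A1, SLC7A5) and ATF4 effectors (STC2, CHAC1, SESN2) stood among the largest differences, and all of those named except ASNS were over 3-fold apart between the nearest arrays. XBP1-dependent secretory genes were also lower, by less, with DNAJB9 and HERPUD1 at the lower end. Few genes were higher by as much: 9 genes against 61 that were lower, among them IFIT3, DCP2 and DYRK2. In a limma fit of the 2 silenced against the 2 control arrays, 0 of 19775 genes passed an adjusted p of 0.05 in either direction (0% called), and the smallest adjusted p was 0.119. At an unadjusted p under 0.05 the same fit held 1904 genes (9.63%).

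Values are log2 units taken relative to the median of each probe set over the 8 arrays, so they give differences between arrays and no expression level. The labelled cell type could therefore be checked only through differences, not through the presence of its markers. A gap is the log2 distance between the nearest silenced and control arrays when both silenced arrays lie beyond both controls; it is negative when they lie below, and 0 when the groups overlap. With 2 arrays against 2, an exact two-sided permutation test cannot go below p = 0.333. Both silenced arrays lay below both controls in 4313 of the 19775 genes (21.8%) and above both in 3743 (18.9%). With each array shifted to a median of 0 these counts were 3777 and 4262, so the larger side depends on scaling. Repeated quantile normalisation (4186 and 3935) and cyclic loess (4064 and 3966) kept more genes on the lower side. A gap of at least 1, or 2-fold between the nearest arrays, was met by 61 genes on the lower side (0.308%) and 9 genes on the higher side (0.0455%). A gap of at least 0.5 was met by 308 (1.56%) and 197 (0.996%), of at least 1.5 by 18 (0.091%) and 1 (0.00506%), and of at least 2 by 5 (0.0253%) and 0. Repeating quantile normalisation gave 63 and 20, cyclic loess 51 and 22, which raises the share of higher genes, and averaging a gene's probe sets gave 32 and 2.

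The spread across genes was wider between the silenced arrays than between the controls. The SD over all genes was 0.236 for NT shRNA minus uninfected and 0.440 for IRE1 shRNA minus XBP1 shRNA. The hybridisation control probe sets had a median of 0.42 on the IRE1 shRNA array against -0.0047 to 0.0479 on the other JJN3 arrays, and the poly-A controls had a median of 0.12 on the XBP1 shRNA array against -0.17 to -0.065; the part of these shifts in the results was not tested. Leaving out the XBP1 shRNA array gave 193 lower and 80 higher genes at a gap of 1, and leaving out the IRE1 shRNA array gave 245 and 207, since 1 silenced array then sets the gap. In limma those fits called 350 and 1045 genes with the lone array assumed to vary like the controls, while leaving out either control called 0. A limma fit over all 8 arrays, in which RPMI-8226 adds to the estimate of spread, called 21 genes lower (0.106%) and 3 higher (0.0152%) in JJN3, and 11 and 2 without the RPMI-8226 array labelled IRE1 shRNA.

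The targeted genes were examined first. XBP1 stood at 1.02 without virus and 1.11 with NT shRNA, against -0.02 with XBP1 shRNA and -1.47 with IRE1 shRNA. The groups did not overlap, and the lowest value was on the IRE1 shRNA array, not on the array whose shRNA targets XBP1. The mean difference was -1.81 ± 0.46 (SE, 2 arrays against 2; limma adjusted p = 0.331), and the other XBP1 probe set gave 0.02. ERN1 stood at -0.29 and -0.35 in the controls, at -1.57 with XBP1 shRNA and at -1.24 with IRE1 shRNA. Here too both silenced arrays were lower, and the array labelled IRE1 shRNA was not the lower of the pair. The difference was -1.09 ± 0.17 (limma adjusted p = 0.208); of its other probe sets, one gave -1.37 and one 0.10. In RPMI-8226, ERN1 stood at 2.75 without virus, 1.73 with NT shRNA and 0.29 with XBP1 shRNA, but at 2.11 on the array labelled IRE1 shRNA. The target therefore lay between the controls on that array and goes against its label, while XBP1 was lower on both (0.19 and 0.02 in the controls, -0.58 and -0.60 on the arrays labelled XBP1 and IRE1 shRNA). For sets of genes, RPMI-8226 medians are therefore given with and without that array. RPMI-8226 counts and single-gene differences include it unless stated.

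**Figure D1:**
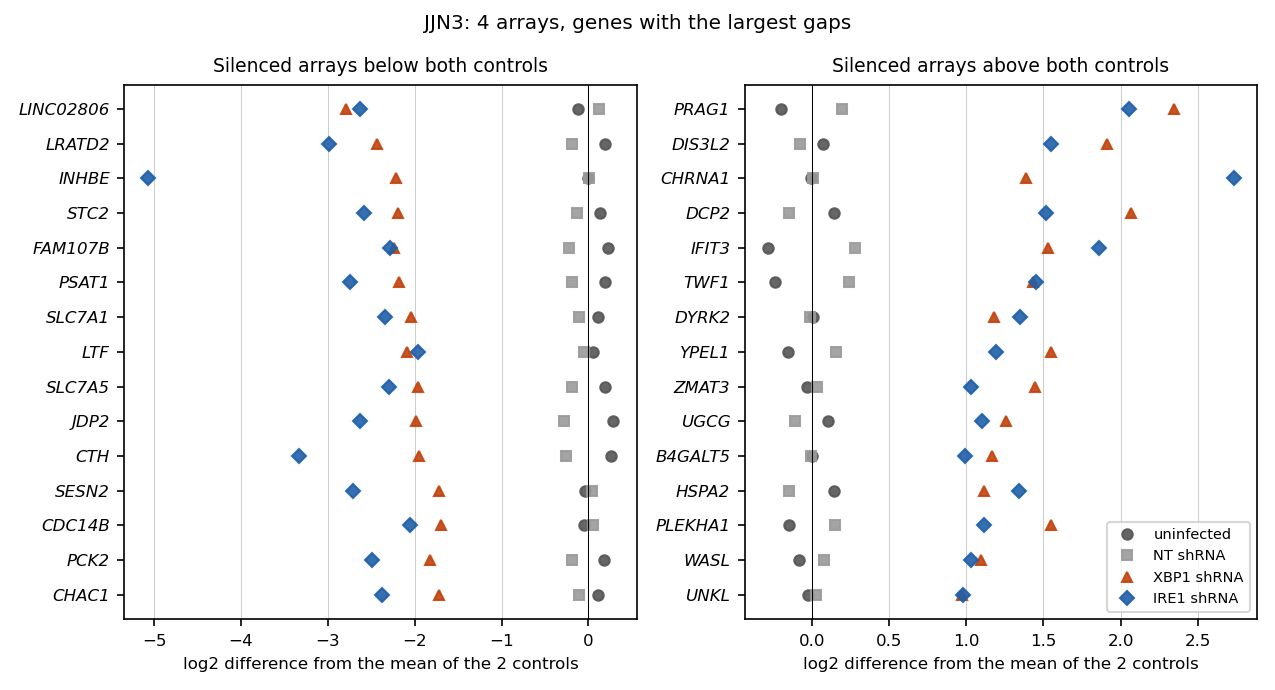
Log2 difference of each JJN3 array from the mean of the 2 controls (x axis) for the 15 genes with the largest gap on each side; circles are uninfected cells, squares NT shRNA, triangles XBP1 shRNA and diamonds IRE1 shRNA. The controls lie close to 0 in each gene and the silenced arrays stand apart from them, with INHBE and CHRNA1 furthest out on the IRE1 shRNA array.

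Of the 61 lower genes, 20 belong to 4 lists of amino acid supply and ATF4 output, which together hold 77 measured genes. The lists were written with earlier results of these data known, so the counts describe and do not test. In these 77 genes both silenced arrays were below both controls in 57 and above both in 5, beside 21.8% and 18.9% of all genes. Their median difference was -0.77, against -0.01 over all genes. In RPMI-8226, on separate arrays, their median was -0.25, and -0.38 without the array labelled IRE1 shRNA.

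Among 25 measured PERK-ATF4 effectors, 17 were lower on both silenced arrays and 0 were higher, beside 21.8% and 18.9% of all genes. In 7 the gap was at least 1 on the lower side, beside 0.308% of all genes, and the median difference was -0.94. ATF4 itself stood at 0.10 and -0.07 in the controls and at -0.85 and -1.75 with XBP1 and IRE1 shRNA. STC2, a secreted glycoprotein induced by ER stress, stood at 2.04 and 1.77 in the controls and at -0.29 and -0.68 when silenced. Both genes were lowest on the IRE1 shRNA array. For STC2 the difference was -2.39 ± 0.20 (limma adjusted p = 0.135). JDP2, a bZIP repressor, stood at 0.53 and -0.04 in the controls and at -1.74 and -2.38 when silenced. SESN2, a leucine sensor that restrains mTORC1, stood at 0.58 and 0.66 in the controls and at -1.10 and -2.09 when silenced. CHAC1, which degrades glutathione, stood at 0.74 and 0.53, then -1.09 and -1.75. None of the 3 overlapped between groups, with differences of -2.30 ± 0.29, -2.22 ± 0.33 and -2.05 ± 0.25 (limma adjusted p = 0.174, 0.194 and 0.174).

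EIF4EBP1, the inhibitor of cap-dependent translation, differed in its order of arrays. It stood at 0.67 and 0.54 in the controls, at -2.29 with XBP1 shRNA and at -1.04 with IRE1 shRNA. It was the 1 gene of the 61 in which the XBP1 shRNA array was lower than the IRE1 shRNA array by at least 1. The bZIP factors CEBPB and CEBPG had differences of -1.45 ± 0.17 and -1.37 ± 0.20 (limma adjusted p = 0.167 and 0.186). DDIT3 (CHOP) had -1.35, ATF3 -0.94, TRIB3 -1.59 and DDIT4 -1.44, with gaps from -0.95 for TRIB3 to -0.85 for DDIT3. These 4 genes thus lay just outside a gap of 1.

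Of 19 measured enzymes of serine, one-carbon, asparagine and transsulfuration metabolism, 16 were lower and 2 were higher, beside 21.8% and 18.9% of all genes. A gap of at least 1 on the lower side was met by 8, beside 0.308% of all genes, and the median difference was -1.16. The silenced arrays lay below the controls at each step of the serine pathway. PHGDH, its first enzyme, stood at 1.24 and 1.08 in the controls and at 0.25 and -0.61 when silenced. PSAT1, the second, stood at -0.26 and -0.63 in the controls and at -2.63 and -3.19 when silenced, 3.99-fold apart between the nearest arrays. PSPH, the last, stood at -0.60 and -0.94 in the controls and at -2.46 and -2.95 when silenced. In all 3 the IRE1 shRNA array was lowest; the differences were -1.34 ± 0.29, -2.46 ± 0.24 and -1.93 ± 0.23 (limma adjusted p = 0.283, 0.141 and 0.168). SHMT2, the mitochondrial serine hydroxymethyltransferase, had -1.26, and MTHFD2, the next mitochondrial folate enzyme, had -0.47 with a gap of -0.35. ALDH1L2, also of mitochondrial folate metabolism, had -1.73 with a gap of -1.17.

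ASNS, asparagine synthetase, stood at 0.81 and 0.58 in the controls, at -0.70 with XBP1 shRNA and at -2.50 with IRE1 shRNA. CTH, which makes cysteine from cystathionine, stood at 2.30 and 1.78 in the controls and at 0.08 and -1.29 when silenced. ASS1, argininosuccinate synthetase, stood at -1.53 and -1.86 in the controls and at -3.01 and -4.58 when silenced. In each of these 3 enzymes the IRE1 shRNA array lay at least 1 below the XBP1 shRNA array, by 1.80 for ASNS, 1.37 for CTH and 1.57 for ASS1. That distance widens the SE, to 0.56 on a difference of -2.30 for ASNS (limma adjusted p = 0.317), 0.46 on -2.64 for CTH (0.223) and 0.50 on -2.10 for ASS1 (0.313). CBS, the enzyme before CTH, had -1.16 ± 0.15 (limma adjusted p = 0.179), and PCK2, the mitochondrial phosphoenolpyruvate carboxykinase, had -2.16 ± 0.27 (0.174).

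The amino acid transporter list held 16 measured genes, of which 11 were lower and 0 were higher, beside 21.8% and 18.9% of all genes. A gap of at least 1 on the lower side was met by 3, beside 0.308% of all genes. The median difference of the list was -0.49. SLC7A1, the carrier of cationic amino acids, stood at 1.72 and 1.49 in the controls and at -0.44 and -0.73 when silenced. SLC7A5, the light chain of the large neutral amino acid carrier, stood at 0.34 and -0.04 in the controls and at -1.81 and -2.15 when silenced. Its heavy chain SLC3A2 stood at 0.50 and 0.33, then -1.04 and -1.27. Both subunits of this carrier were lower on both silenced arrays, by -2.13 ± 0.21 and -1.58 ± 0.16 (limma adjusted p = 0.140 and 0.141). SLC7A1 had -2.19 ± 0.18 (0.135). SLC43A1, another neutral amino acid carrier, had a gap of -0.91. SLC7A11, the cystine carrier that also pairs with SLC3A2, stood at 0.75 and 0.64 in the controls, at 0.06 with XBP1 shRNA and at -2.19 with IRE1 shRNA, so that most of its difference lay on 1 array.

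Cytosolic aminoacyl-tRNA synthetases, which charge tRNAs with amino acids, were lower in 14 of 18 measured genes and higher in 3. The shares of all genes were 21.8% and 18.9%. At a gap of at least 1, 2 were lower, beside 0.308% of all genes, and the median difference was -0.51. SARS1, the serine enzyme, stood at 0.56 and 0.39 in the controls and at -1.11 and -1.49 when silenced. AARS1, the alanine enzyme, stood at 1.01 and 0.93 in the controls and at -0.23 and -0.59 when silenced. The groups did not overlap in either, and the differences were -1.78 ± 0.19 and -1.38 ± 0.18 (limma adjusted p = 0.141 and 0.174). EPRS1, CARS1 and GARS1 followed with gaps of -0.93, -0.92 and -0.89.

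**Figure D2:**
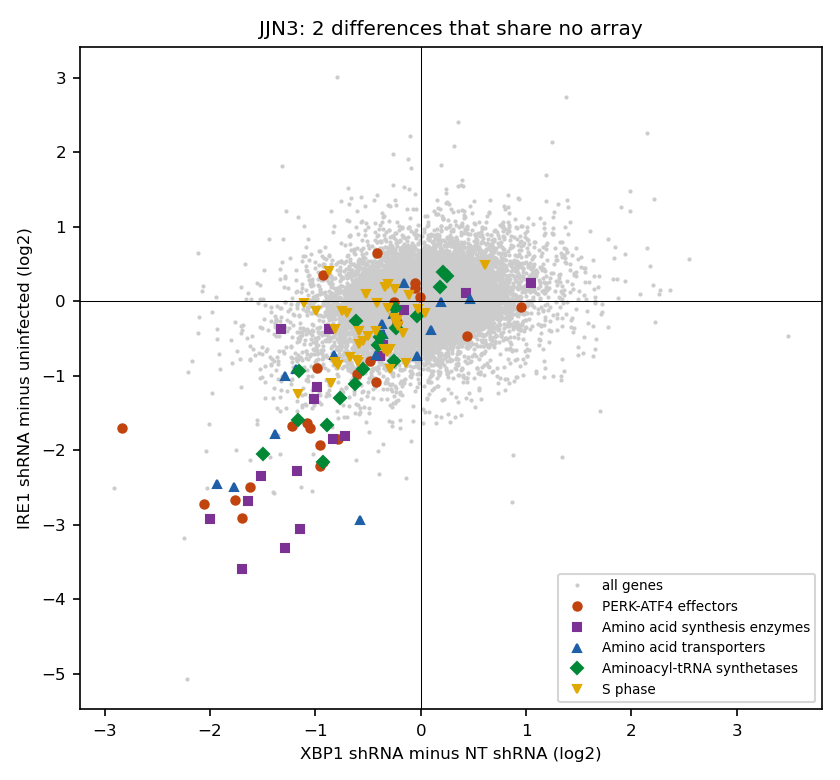
XBP1 shRNA minus NT shRNA (x axis, log2) against IRE1 shRNA minus uninfected (y axis, log2) in JJN3, 2 differences that share no array; grey points are all 19775 genes, coloured symbols are 5 gene lists. The 4 amino acid and ATF4 lists reach far into the lower left, where both differences are negative, and S phase genes lie nearer to 0 on the same side.

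Across all genes these 2 differences correlated with Pearson r = 0.262 and Spearman rho = 0.191, and the other pair that shares no array (XBP1 shRNA minus uninfected, IRE1 shRNA minus NT shRNA) with r = 0.191 and rho = 0.130. These are descriptions across genes, which are not independent replicates.

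Promoters of the lower genes were searched for the short motif TGATGNAA, which fits the composite sites bound by ATF4 with C/EBP proteins, on both strands from 250 bases before to 50 after the annotated start (RefSeq, GRCh38.p14). A promoter was matched by symbol for 48 of the 61 lower genes and for 15384 of the 19775 genes measured. The motif was present in 7 of the 48 (14.6%), in 2.69% of the promoters of all measured genes and in 3.75% of all 27305 promoters. On 1 strand it was present in 6.25%, 1.43% and 1.93%. The 5 promoters below are printed because their genes were lower and hold the motif; capitals mark it, and TTGCATCA is its reverse complement. The windows lie at chr15:40953221-40953520 on the plus strand for CHAC1, chr16:70289457-70289756 on the minus strand for AARS1, chr16:56931892-56932191 on the plus strand for HERPUD1, chr13:29595639-29595938 on the minus strand for SLC7A1 and chr1:148279018-148279317 on the plus strand for LINC02806. Each is read 5′ to 3′ along the gene.
CHAC1: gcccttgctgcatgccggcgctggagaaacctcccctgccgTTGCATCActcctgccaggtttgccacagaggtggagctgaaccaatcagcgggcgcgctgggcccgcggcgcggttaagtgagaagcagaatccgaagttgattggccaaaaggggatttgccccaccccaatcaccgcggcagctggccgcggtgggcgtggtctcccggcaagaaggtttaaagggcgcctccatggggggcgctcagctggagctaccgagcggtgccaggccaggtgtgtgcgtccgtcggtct
AARS1: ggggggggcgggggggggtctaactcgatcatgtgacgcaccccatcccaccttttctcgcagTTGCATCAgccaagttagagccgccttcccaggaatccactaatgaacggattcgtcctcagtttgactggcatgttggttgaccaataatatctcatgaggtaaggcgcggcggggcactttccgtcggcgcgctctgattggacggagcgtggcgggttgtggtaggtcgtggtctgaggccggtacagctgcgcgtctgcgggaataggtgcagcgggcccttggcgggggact
HERPUD1: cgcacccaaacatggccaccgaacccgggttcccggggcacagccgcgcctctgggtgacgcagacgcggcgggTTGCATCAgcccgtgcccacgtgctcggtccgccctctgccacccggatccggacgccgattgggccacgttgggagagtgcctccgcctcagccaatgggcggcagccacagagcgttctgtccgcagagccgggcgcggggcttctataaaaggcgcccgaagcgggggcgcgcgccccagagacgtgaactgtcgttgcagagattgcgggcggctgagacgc
SLC7A1: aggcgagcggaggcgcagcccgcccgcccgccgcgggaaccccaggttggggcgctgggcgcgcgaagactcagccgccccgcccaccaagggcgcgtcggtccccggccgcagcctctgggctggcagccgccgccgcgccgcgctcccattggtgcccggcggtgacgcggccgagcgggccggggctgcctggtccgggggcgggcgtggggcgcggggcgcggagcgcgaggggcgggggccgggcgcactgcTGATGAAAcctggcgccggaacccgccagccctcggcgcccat
LINC02806: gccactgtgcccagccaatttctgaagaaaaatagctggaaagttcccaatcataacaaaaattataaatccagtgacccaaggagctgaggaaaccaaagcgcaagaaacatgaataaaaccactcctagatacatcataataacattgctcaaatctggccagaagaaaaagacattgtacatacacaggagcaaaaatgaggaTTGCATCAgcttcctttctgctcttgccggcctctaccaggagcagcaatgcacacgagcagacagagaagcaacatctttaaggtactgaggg

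The match begins at -209 from the start in CHAC1, -187 in AARS1, -176 in HERPUD1 and -44 in LINC02806, and at 7 after it in SLC7A1. CHAC1, AARS1, HERPUD1 and LINC02806 carry the same 8 letters on the same strand, and SLC7A1 carries TGATGAAA. The other 2 matches were in IL21R at -118 and TMEM268 at -1. The cAMP response element TGACGTCA, the XBP1-type core TGACGTGG and the ER stress element (CCAAT, then 9 bases, then CCACG) were found in 0 of the 48, beside 2.61%, 0.904% and 0.0975% of all measured genes' promoters. CCAAT alone, which the ER stress element contains, was found in 52.1% of the 48 and 35.7% of all measured genes' promoters, and the E-box CACGTG in 10.4% and 8.55%. A match is a stretch of letters and not a measured binding site, and no match says only that these letters are not in this window.

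Genes of the secretory pathway were lower by smaller amounts. Of 38 measured XBP1-dependent secretory genes, 19 were lower on both silenced arrays and 3 were higher, beside 21.8% and 18.9% of all genes. At a gap of at least 1, 2 were lower, beside 0.308% of all genes. The median difference was -0.22, and in RPMI-8226 it was -0.26, or -0.13 without the array labelled IRE1 shRNA. DNAJB9, an ER co-chaperone and a known XBP1 target, stood at -0.02 and 0.28 in the controls and at -1.07 and -1.06 when silenced. HERPUD1, which takes part in ER-associated degradation, stood at 0.61 and 0.55 in the controls and at -0.50 and -0.68 when silenced. The silenced arrays lay within 0.2 of each other in both genes, with differences of -1.20 ± 0.16 and -1.17 ± 0.15 (limma adjusted p = 0.186 and 0.174). SEL1L, the adaptor of the HRD1 ubiquitin ligase, had -0.76 with a gap of -0.68, and SEC63, a translocon component, had -0.97 with a gap of -0.61. In the promoters of the 34 secretory genes with a match in the table, the ER stress element was found in 3 (8.82%) and the XBP1-type core in 4 (11.8%).

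ER chaperones and disulfide enzymes were lower in 14 of 20 genes and higher in 0, beside 21.8% and 18.9% of all genes. Their median was -0.27. UGGT1, which checks glycoprotein folding, had a gap of -0.53, the prolyl isomerases FKBP14 and FKBP11 had -0.50 and -0.38, and TXNDC11 had -0.47. HSPA5 (BiP), the main ER chaperone, stood at 0.42 and 0.66 in the controls, at 0.47 with XBP1 shRNA and at 0.08 with IRE1 shRNA. The groups therefore overlapped for HSPA5, and its other probe set gave 0.19 rather than -0.27. ER-to-Golgi transport genes were lower in 17 of 45 and higher in 5 (median -0.21), beside 21.8% and 18.9% of all genes. BET1, a SNARE, stood at -0.02 and 0.02 in the controls and at -0.81 and -0.87 when silenced. SEC22B and SEC24D had gaps of -0.68 each and TMED2 one of -0.39. N-glycosylation genes were lower in 16 of 37 and higher in 4 (median -0.15), beside 21.8% and 18.9% of all genes. Among them ALG2 and DPAGT1 had gaps of -0.44 and -0.35. ER-associated degradation genes were lower in 9 of 23 (39.1%) and higher in 5 (21.7%), beside 21.8% and 18.9% of all genes. Their median was -0.16, and no member of this list reached a gap of 0.5 (0 genes). That gap was met by 1.56% of all genes on the lower side and 0.996% on the higher side. DERL3 had a gap of -0.28, while another of its probe sets overlapped between groups.

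Among 11 sensors and regulators of the unfolded protein response, 5 were lower and 1 was higher, beside 21.8% and 18.9% of all genes. CREB3L2, an ER-anchored transcription factor, stood at 0.57 and 0.40 in the controls and at -0.45 and -1.11 when silenced, a gap of -0.85; one of its 3 probe sets gave 0.10. SDF2L1 had a gap of -0.16. CREBRF, a regulator of CREB3, was the 1 higher gene with a gap of 0.47. Of 13 measured transcripts reported as substrates of IRE1's RNase, 3 were lower and 4 were higher, beside 21.8% and 18.9% of all genes.

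**Figure D3:**
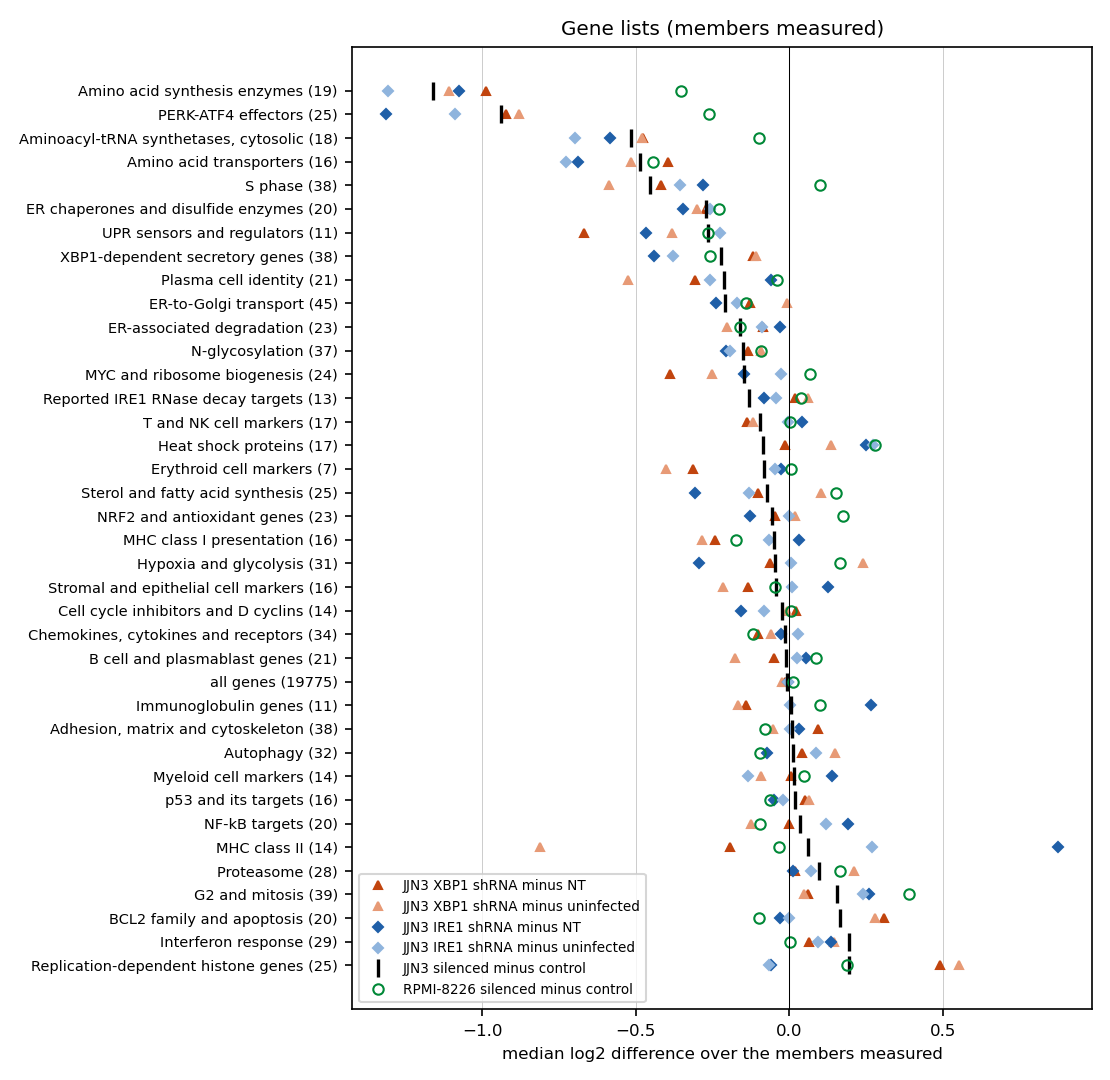
Median log2 difference over the measured members of each gene list (x axis), with the number of members in parentheses; triangles and diamonds are single JJN3 differences for XBP1 shRNA and IRE1 shRNA against each control, black bars the JJN3 silenced minus control difference and open circles the same in RPMI-8226. The 4 amino acid and ATF4 lists have the lowest JJN3 silenced minus control medians, from -1.16 to -0.49, S phase genes lie left in JJN3 and right in RPMI-8226, and MHC class II genes lie on opposite sides for the 2 shRNAs.

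Outside these lists, the largest gap belonged to LINC02806, a long non-coding RNA on chromosome 1. It stood at 1.16 and 1.40 in the controls and at -1.51 and -1.35 when silenced, 5.68-fold apart between the nearest arrays, with a difference of -2.71 ± 0.16 and the smallest limma adjusted p, 0.119. LRATD2 stood at 2.21 and 1.83 in the controls and at -0.42 and -0.97 when silenced. INHBE, the inhibin beta E subunit, stood at 0.81 in both controls, at -1.40 with XBP1 shRNA and at -4.26 with IRE1 shRNA. INHBE thus had the largest mean difference, -3.64 ± 0.87 (limma adjusted p = 0.313), of which a large share lay on the IRE1 shRNA array. FAM107B stood at 0.11 and -0.33 in the controls and at -2.35 and -2.40 when silenced. LTF (lactoferrin, an iron-binding secreted protein) stood at 1.39 and 1.29, then -0.75 and -0.63. In both genes the silenced arrays lay almost together, with differences of -2.27 ± 0.19 and -2.03 ± 0.15 (limma adjusted p = 0.135 each). CDC14B, a dual-specificity phosphatase, stood at 2.82 and 2.94 in the controls and at 1.18 and 0.83 when silenced; 4 of its 7 other probe sets were lower on both silenced arrays and 2 gave differences of 0.11 and 0.17.

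Some cytokine receptors and survival genes stood on the lower side, although their lists did not as a whole. IL21R, the interleukin 21 receptor, stood at -0.05 and 0.05 in the controls and at -1.50 and -1.65 when silenced, a gap of -1.45. IL6R, the receptor of a growth factor of myeloma cells, stood at -0.90 and -1.11 in the controls and at -2.06 and -2.15 when silenced, and its signalling partner IL6ST at 1.18 and 1.13, then 0.14 and 0.56. IL10RA had a gap of -0.76. The 34 measured chemokines, cytokines and receptors were lower in 8 and higher in 4, beside 21.8% and 18.9% of all genes, with a median of -0.02 beside -0.01. Of 20 measured genes of the BCL2 family and apoptosis, 5 were lower and 4 were higher, near the 21.8% and 18.9% of all genes. The median was 0.16, but -0.08 when the XBP1 shRNA array was left out. Within this list, PMAIP1 (NOXA), which promotes apoptosis, stood at 0.89 and 0.94 in the controls and at -0.47 and -0.41 when silenced. BCL2, which opposes it, stood at 0.29 and 0.16 in the controls and at -0.95 and -0.87 when silenced. MCL1 overlapped between groups, at 0.15 and 0.22 in the controls, 1.02 with XBP1 shRNA and 0.03 with IRE1 shRNA. Of its 5 other probe sets, 3 were higher on both silenced arrays, by gaps of 0.055 to 0.20. BID was higher with a gap of 0.46. Differences were -1.35 ± 0.14 for PMAIP1 and -1.14 ± 0.15 for BCL2 (limma adjusted p = 0.141 and 0.174). Another probe set gave 0.018 for BCL2 and another 0.057 for IL6R, so neither gene was lower on all of its probe sets.

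The remaining genes with a gap of at least 1 on the lower side were RAB39B, NLRP11, MAP1B, KIF21B, LINC00662, RERGL, PPARGC1A, KCNMB2, ARHGAP26, FNDC3A, PTMA, C1orf56, ZBED3, REPS2, RHBDD2, ARHGAP9, FBXO16, HMGCLL1, ZBTB38, OLMALINC, TMEM267, TMPRSS3, TUBE1, TBC1D16, TMEM268, LRRC8D, PKP2, EFEMP1 and SERPINH1. Of these, MAP1B, a microtubule-associated protein, stood at 3.66 and 3.64 in the controls and at 2.24 and 1.10 when silenced. NLRP11 stood at -1.77 and -1.93, then -3.48 and -3.41. The gene nearest to the threshold inside it was SERPINH1 at -1.01, and outside it LINC00992 at -0.999. Of the 61 genes, 43 had several probe sets. In 40 of those at least 1 other probe set was also lower on both silenced arrays by any gap. By the chosen probe set alone, 21.8% of all genes met this. The share of genes with any of several other probe sets lower was not counted. The gap on another probe set could be small: -0.014 and -0.10 on the other LRATD2 probe sets, against -2.25 on the chosen one. For TBC1D16 the only other probe set that was lower had -0.17. In 0 of the 43 was another probe set higher by the larger gap of at least 0.5.

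On the higher side, 9 genes had a gap of at least 1. PRAG1, a pseudokinase scaffold, stood at -2.80 and -2.41 in the controls and at -0.26 and -0.55 when silenced, a difference of 2.20 ± 0.20 (limma adjusted p = 0.135). CHRNA1, the muscle acetylcholine receptor alpha subunit, stood at 0.80 and 0.81 in the controls, at 2.19 with XBP1 shRNA and at 3.54 with IRE1 shRNA. DYRK2, a kinase, stood at -0.71 and -0.73 in the controls and at 0.46 and 0.63 when silenced. In these 3 genes the groups did not overlap, and DYRK2 had the closest replicates. The RNA decay genes DCP2, the decapping enzyme, and DIS3L2, a 3′ to 5′ exonuclease, had differences of 1.79 ± 0.23 and 1.73 ± 0.18 (limma adjusted p = 0.174 and 0.141). DCP2 was higher on 2 of its 3 other probe sets by gaps of 0.93 and 0.26, and DIS3L2 on 1 of its 3 others by 0.89 while the other 2 overlapped. TWF1, an actin-binding protein, had 1.44 ± 0.20, YPEL1 1.37 ± 0.20 and ZMAT3, a p53 target, 1.24 ± 0.19 (limma adjusted p = 0.186, 0.186 and 0.194), though another YPEL1 probe set gave -0.0048.

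Just outside the threshold stood UGCG, glucosylceramide synthase, at a gap of 0.99, and B4GALT5, lactosylceramide synthase, also at 0.99; they catalyse successive steps of glycosphingolipid synthesis. UGCG stood at -0.54 and -0.76 in the controls and at 0.61 and 0.45 when silenced, and B4GALT5 at -0.62 in both controls and at 0.55 and 0.37 when silenced. HSPA2, PLEKHA1, WASL and UNKL followed with gaps of 0.97, 0.96, 0.95 and 0.95.

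IFIT3, an interferon-induced protein, stood at -0.77 and -0.21 in the controls and at 1.04 and 1.37 when silenced, a difference of 1.69 ± 0.24 (limma adjusted p = 0.186). Its relative IFIT5 stood at -0.15 and 0.04 in the controls and at 0.96 and 1.24 when silenced. HERC5 and IFIT2 had gaps of 0.59 and 0.47. Of 29 measured interferon response genes, 12 were higher and 4 were lower, beside 18.9% and 21.8% of all genes, with a median of 0.19. Among the lower ones, GBP1 stood at 2.37 and 2.79 in the controls and at 2.06 and 0.82 when silenced. For IFIT3 the NT shRNA array was 0.56 above the uninfected one, and the XBP1 and IRE1 shRNA arrays were 1.245 and 1.58 above the NT shRNA array; the part of infection in these values was not tested. Other genes higher on both silenced arrays were REL, an NF-kB subunit (gap 0.80), TP53INP1, a p53 target (0.90), ATG14, an autophagy factor (0.79), LGALS1 (0.65) and ITGAV (0.37). Of the other REL probe sets, some were higher by gaps of 0.64 and 0.34, another overlapped and another was lower by a gap of -0.13. The other TP53INP1 probe sets overlapped between groups. Among proteasome genes PSMD11 had a gap of 0.58 and PSMB7 one of 0.50. The other PSMD11 probe set was lower on both silenced arrays, by a gap of -0.07, and the other PSMB7 probe set overlapped. NFE2L1, which drives proteasome genes, had a gap of -0.91.

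S phase genes were lower as a group in JJN3. Of 38 measured, 27 were lower on both silenced arrays and 1 was higher, beside 21.8% and 18.9% of all genes. A negative difference was found in 37, and the median difference was -0.45. None reached a gap of 1 (0 genes), which 0.308% of all genes met on the lower side. MCM6, a subunit of the replicative helicase, stood at 0.71 and 0.34 in the controls and at -0.83 and -0.53 when silenced. PRIM1, a primase subunit, stood at 0.65 and 0.48 in the controls and at -0.37 and -0.46 when silenced, and CDC6, which loads the helicase, at 0.01 in both controls and at -0.80 and -0.81 when silenced. The silenced arrays lay close together in PRIM1 and CDC6, with gaps of -0.85 and -0.81. In RPMI-8226 the same list had 3 lower and 12 higher genes, beside 14.7% and 18.5% of all genes. Its median there was 0.10, or 0.13 without the array labelled IRE1 shRNA. Per gene the interaction held 0 of the 38 at an adjusted p under 0.05 and 13 at an unadjusted p under 0.05 (4.77% of all genes).

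G2 and mitosis genes went the other way, with 14 higher and 6 lower of 39, beside 18.9% and 21.8% of all genes. Their median was 0.15. In RPMI-8226 28 were higher and 3 lower, beside 18.5% and 14.7% of all genes. The RPMI-8226 median was 0.39 (0.47 without the array labelled IRE1 shRNA). KIF14, TOP2A and HMMR had differences of 0.41, 0.51 and 0.35 in JJN3. MYC and ribosome biogenesis genes were lower in 12 of 24 and higher in 0 (median -0.15), beside 21.8% and 18.9% of all genes. SRM, spermidine synthase, had -0.99 with a gap of -0.76, and NPM1 and LYAR had gaps of -0.33 each. MYC stood at -0.12 and 0.03 in the controls, at -1.01 with XBP1 shRNA and at -0.14 with IRE1 shRNA, a gap of only -0.03. Among cell cycle regulators, CDKN2B had a gap of -0.73, CDK4 one of -0.34, and CDK6 stood at 1.88 and 1.63 in the controls, 0.01 with XBP1 shRNA and 1.28 with IRE1 shRNA. CDK6 and MYC were thus lowest on the XBP1 shRNA array.

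Of 21 genes of plasma cell identity, 8 were lower and 0 were higher, beside 21.8% and 18.9% of all genes. The other 13 overlapped between groups, 6 of the 21 had a positive difference, and the median was -0.21. IRF4, a survival factor of myeloma cells, stood at 1.49 and 1.30 in the controls, at 0.14 with XBP1 shRNA and at 0.98 with IRE1 shRNA. Another IRF4 probe set overlapped between groups with a difference of -0.29, and another gave 0.06. PRDM1 (Blimp-1) stood at 1.27 and 1.39 in the controls and at 0.31 and 0.90 when silenced, and TNFRSF17 (BCMA) at 1.05 and 0.84, then -0.03 and 0.51. These 3 genes were lowest with XBP1 shRNA, unlike most of the amino acid genes. MZB1, an ER co-chaperone of B lineage cells, and ITGB7 had gaps of -0.60 and -0.52. Among markers of other cell types, 4 of 17 T and NK cell markers were lower and 1 higher. Of 14 myeloid markers 4 were lower and 2 higher, and of 16 stromal and epithelial markers 2 were lower and 1 higher. Of 7 erythroid markers 3 were lower and 0 higher. The shares of all genes were 21.8% lower and 18.9% higher. None of these markers of other cell types reached a gap of 0.5 (0 genes). Of all genes, 1.56% met that gap on the lower side and 0.996% on the higher side, so 0 in lists of this size says little. The presence of the markers cannot be read from centred values.

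Some lists were split between the silenced arrays. MHC class II genes had a median of -0.19 for XBP1 shRNA minus NT shRNA and 0.88 for IRE1 shRNA minus NT shRNA, and 11 of the 14 overlapped between the groups. HLA-DRA stood at 1.24 and 0.75 in the controls, at 0.26 with XBP1 shRNA and at 1.47 with IRE1 shRNA. Replication-dependent histone genes had a median of 0.49 for XBP1 shRNA minus NT shRNA and -0.06 for IRE1 shRNA minus NT shRNA; H2BC21 stood at 0.38 and 0.30 in the controls, 2.57 with XBP1 shRNA and 0.53 with IRE1 shRNA. In these lists the mean of the silenced arrays describes neither array. The remaining lists had medians between -0.09 (heat shock proteins) and 0.16 (BCL2 family and apoptosis). Without the XBP1 shRNA array these medians both changed sign, to 0.32 and -0.08. Heat shock proteins were lower in 3 and higher in 6 of 17, beside 21.8% and 18.9% of all genes. HSPA9 had a gap of -0.28 and HSPA4L one of 0.62. NRF2 and antioxidant genes were lower in 6 and higher in 6 of 23, beside 21.8% and 18.9% of all genes. In this list HMOX1, at a gap of -0.60, was the member furthest from the controls. Sterol and fatty acid genes were lower in 8 and higher in 6 of 25, beside the same shares of all genes. SCD and SQLE had gaps of -0.49 and -0.48 and ELOVL6 one of 0.73.

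Among the 61 lower genes, the IRE1 shRNA array was below the XBP1 shRNA array in 42 and above it in 19, with a median of -0.23 for IRE1 shRNA minus XBP1 shRNA. It was lower by at least 1 in 8 genes, beside 2.38% of all genes. In the 77 amino acid and ATF4 genes it was lower in 56 and the median was -0.26. With 1 array per shRNA this order has no replicate and no test.

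**Figure D4:**
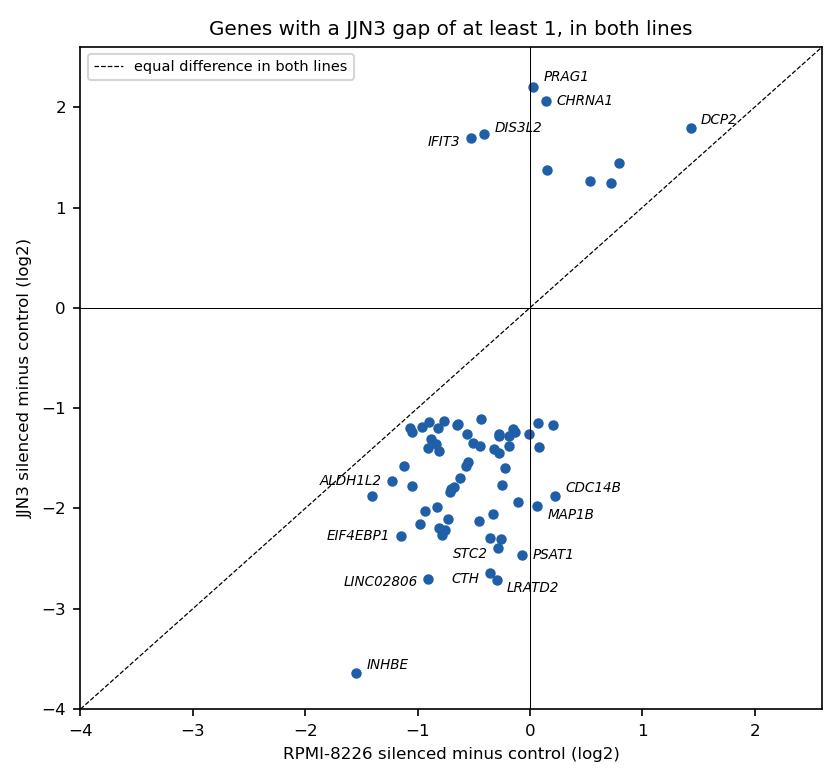
Silenced minus control difference in RPMI-8226 (x axis, log2) against JJN3 (y axis, log2) for the 70 genes with a JJN3 gap of at least 1; each point is a gene, and the dashed line marks equal differences. Most lower genes lie left of 0 and below the line, and of the higher genes DCP2 lies nearest to it.

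RPMI-8226, which shares no array with JJN3, gives the same genes a reading on separate cells. Of the 61 genes lower in JJN3, the RPMI-8226 arrays labelled XBP1 and IRE1 shRNA were both below both controls in 41, both above in 2 and overlapping in 18, beside 14.7% and 18.5% of all genes below and above. ERN1 goes against the label of the second of these arrays; the XBP1 shRNA array alone was below both controls in 50 of the 61 and above both in 3, beside 32.3% and 38.9% of all genes. The median difference was -0.57 in RPMI-8226 (-0.69 without the array labelled IRE1 shRNA) and -1.58 in JJN3; the difference was larger in JJN3 in all 61, where the genes were chosen for their JJN3 gap. Of the 9 higher genes, 4 were higher in RPMI-8226, 1 was lower and 4 overlapped. The XBP1 shRNA array alone was above both controls in 4 of the 9, below both in 2 and between them in 3. Their median difference in RPMI-8226 was 0.16, or 0.05 without the array labelled IRE1 shRNA. With both silenced RPMI-8226 arrays, 2 genes were lower (0.0101%) and 1 was higher (0.00506%) by a gap of at least 1. On these arrays limma called 0 genes, with 874 (4.42%) at an unadjusted p under 0.05. Across all genes the silencing differences of the lines correlated with r = 0.314 and rho = 0.229, and with 0.313 and 0.225 without the RPMI-8226 array labelled IRE1 shRNA.

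Several genes were near in size in both lines. ALDH1L2 had -1.73 in JJN3 and -1.23 in RPMI-8226, SARS1 -1.78 and -1.05, IL21R -1.58 and -1.12, and DCP2 1.79 and 1.43. These RPMI-8226 differences include the array labelled IRE1 shRNA, which lay nearer to the controls than the XBP1 shRNA array in each. The XBP1 and IRE1 shRNA arrays stood at -2.03 and -1.15 for ALDH1L2 and at -1.38 and -0.23 for SARS1. For IL21R they stood at -0.22 and 0.18, and for DCP2 at 1.35 and 0.57. Others were low in JJN3 with little difference in RPMI-8226: PSAT1 had -2.46 and -0.07, STC2 -2.39 and -0.28, LRATD2 -2.71 and -0.30, MAP1B -1.98 and 0.07, and PSPH -1.93 and -0.11. MAP1B lay between -1.28 and -1.10 on the RPMI-8226 arrays, against 3.66 and 3.64 in the JJN3 controls. Centred values do not show whether it was high enough in RPMI-8226 for a fall to be seen. STC2 and LRATD2 were also lower in the RPMI-8226 controls than in the JJN3 controls, and PSAT1 and PSPH were higher. Without the RPMI-8226 array labelled IRE1 shRNA, the RPMI-8226 difference was -0.09 for PSAT1 and -0.46 for STC2. The difference between lines was tested as an interaction in limma over the 8 arrays. It called 0 of 19775 genes (smallest adjusted p 0.336) and held 943 (4.77%) at an unadjusted p under 0.05, among them 39 of the 61 (29 without the RPMI-8226 array labelled IRE1 shRNA). With the 4 treatments as a block shared by the lines, it called 0 (smallest adjusted p 0.0747, PSAT1) and held 1593 at an unadjusted p under 0.05, among them 47 of the 61. The 61 were chosen for their JJN3 gap, and the JJN3 difference is part of the interaction. That choice raises these counts of the 61, so they are no separate evidence of a difference between the lines. PSAT1 had an interaction of -2.39 ± 0.32 and STC2 one of -2.11 ± 0.28, both with an adjusted p of 0.336. No gene can therefore be called different between the lines at an adjusted p under 0.05, although leaving out the uninfected RPMI-8226 array called 2.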

How the data were processed

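RNA from 8 cultures (JJN3 and RPMI-8226, 4 treatments each) was measured on Affymetrix arrays, and the number of arrays limits the precision. The deposited values were made with RMA, per the submitters' processing notes, and were taken as log2 because RMA returns that scale; the log base, the software version and the centring are not given in the sources used here. All 54675 probe sets were centred on their median across the arrays (tolerance 1e-05). The array annotation gave 1 symbol to 41097 probe sets, several to 1801 and none to 11777; 41043 matched the RefSeq table (GRCh38.p14). A gene (19775) was represented by its probe set of highest SD over the 8 arrays. The 2 silenced and 2 control JJN3 arrays were compared by limma (version 3.58.1, R version 4.3.3; lmFit and eBayes, two-sided) with Benjamini-Hochberg adjustment across all genes at 0.05; the script was tested on simulated data. Genes were named by the 15 largest gaps per direction, the 8 largest interactions per direction, up to 4 per list and the targets; others were named after their values were seen. The 37 lists, the members and the tests were chosen with earlier results of these data known. Alternatives were other probe set choices and normalisations, a filter on SD, other fits and gaps, and leaving out each array; a treatment block and fits without the RPMI-8226 array labelled IRE1 shRNA were added after seeing the data.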

Additional observations from a re-analysis of the deposited data

Results flagged for a closer look

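CDC14B, EFEMP1 and MCM4 were below both controls on both silenced JJN3 arrays and above both on the RPMI-8226 arrays labelled XBP1 and IRE1 shRNA (ERN1 goes against the label of the second), and DIS3L2 and PSMB7 went the other way in each line. The interaction (JJN3 minus RPMI-8226, log2) was -2.09 for CDC14B, -1.37 for EFEMP1, -1.002 for MCM4, 2.14 for DIS3L2 and 1.25 for PSMB7. In limma their adjusted p-values were 0.336, 0.517, 0.816, 0.370 and 0.846, so none of the 5 passed the threshold. CDC14B stood at -1.16 and -0.96 in the RPMI-8226 controls, against 2.82 and 2.94 in the JJN3 controls. EFEMP1 stood at -0.63 and -0.68, against 1.47 and 1.72. Centred values do not show whether these 2 genes were high enough in RPMI-8226 for a fall to be seen.

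Probe sets that measure no human gene also differed between arrays. The 18 hybridisation control probe sets had a median of 0.42 on the JJN3 IRE1 shRNA array, above the range of the JJN3 controls, and the 27 poly-A control probe sets had a median of 0.12 on the JJN3 XBP1 shRNA array.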

How the results depend on the processing

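The 0 genes called by limma in JJN3 stayed 0 under each probe set choice, normalisation, the SD filter and robust eBayes; the 8-array fit called 24 (13 without the RPMI-8226 array labelled IRE1 shRNA, added after seeing the data), and leaving out 1 array called 0 to 1045. The interaction called 0 to 2 genes when 1 array was left out, and 0 otherwise. Treatments pair the lines: across genes, NT shRNA minus uninfected correlated between them with r = 0.195 and IRE1 shRNA minus XBP1 shRNA with r = 0.448. The interaction with treatment as a block, added after seeing the data, called 0. At a gap of at least 1, the 61 lower genes became 32 with averaged probe sets, and the 9 higher genes became 2 with averaged probe sets, 14 with the probe set of highest SD over the JJN3 arrays, 20 after repeated quantile normalisation and 22 after cyclic loess. Leaving out 1 array gave 89 to 245 lower and 28 to 207 higher genes. Any gap gave 4313 lower and 3743 higher, 0.5 gave 308 and 197, 1.5 gave 18 and 1, and 2 gave 5 and 0.

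XBP1 was 0.019 with the probe set of highest mean, which is its other probe set, and without 1 array it ranged from -2.53 to -1.09. ERN1 was 0.10 and -1.37 on its other probe sets, -0.52 after cyclic loess and -1.25 to -0.92 without 1 array. Another probe set also turned the sign of BCL2 (0.018), CREB3L2 (0.099) and IL6R (0.057), taken by highest mean (of centred values, so not the best-expressed probe set), of CDC14B (0.11), YPEL1 (-0.0048) and HSPA5 (0.19), taken by highest SD over the RPMI-8226 arrays, and of HSPA5 (0.19) by that over the JJN3 arrays. Leaving out 1 array, MCL1 ranged from -0.16 to 0.83 and HLA-DRA from -0.73 to 0.47. The cause was not tested. Of 2126 values of 152 named genes under alternatives, 13 changed sign. Of 37 list medians, 5 changed sign under at least 1 of 3 scalings (B cell, MHC class II, cytokine, autophagy and adhesion lists). Under any alternative, 15 of the 37 changed sign. Among them, heat shock proteins went from -0.09 to 0.42 with the SD filter. The BCL2 family list went from 0.16 to -0.08 without the XBP1 shRNA array, and the reported IRE1 RNase targets from -0.13 to 0.05 without the IRE1 shRNA array. CCAAT was in 31.2% of the lower genes' promoters on 1 strand. Within JJN3 no paired analysis was possible because the labels carry no replicate numbers and each treatment has 1 array.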

Other observations

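Of 13578 probe sets without a single gene symbol, both silenced JJN3 arrays were below both controls by a gap of at least 1 in 9 and above in 10. PLXDC2, a membrane protein, was called lower in the 8-array limma fit at a gap of -0.97 (2.53 and 2.30 in the controls, 1.03 and 1.33 when silenced), and was the 1 gene of the 24 called with a gap under 1.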
